A study of Mus musculus with 8 samples.

Results

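Voltage-gated sodium and calcium channels were compared between young adult and aged mouse brain. Their genes were taken by symbol, as the protein-coding genes whose GENCODE name begins with Scn, a number and a or b, or with Cacna, Cacnb or Cacng. The rule found 40 genes among the 22430 genes of the count table, 20 pore-forming subunits and 20 auxiliary subunits. RNA came from brains of 8 male C57Bl/6JRj mice, 4 animals of 6 months (6m) and 4 of 24 months (24m), without a transgene or a treatment in either group. The labels call the tissue whole brain in 1 field and brain hemisphere in another, and polyadenylated RNA was sequenced from each animal as a library of its own.

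Both channel families open when the membrane depolarizes. Sodium channels carry the upstroke of the action potential, and in neurons they are packed at the axon initial segment and the nodes of Ranvier. Calcium channels turn depolarization into calcium entry, which drives transmitter release at terminals, dendritic signalling and gene expression. Each channel has 1 large pore-forming subunit, alpha for sodium and alpha1 for calcium. Sodium channel beta subunits are small membrane proteins that modulate gating and adhesion. Among the calcium channel auxiliaries, the intracellular beta subunits and the alpha2delta subunits help the pore reach the surface, and several gamma subunits act in brain as partners of AMPA-type glutamate receptors (TARPs) rather than of calcium channels.

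A pair of adjacent sodium channel beta subunit genes showed some of the steepest rises described here, so the bases before their starts are shown first. Scn2b and Scn4b lie head to tail on chromosome 9 in mouse assembly GRCm39, at positions 45029080 to 45041368 and 45049595 to 45065452 on the plus strand, with 8226 bases between them. The gamma subunit genes Cacng5, called higher in 24m, and Cacng2, called lower, follow as a contrast. Cacng5 lies on chromosome 11 at 107765431 to 107811030 and Cacng2 on chromosome 15 at 77875948 to 78004441, both on the minus strand. Each sequence is the 250 bases before the outermost start that GENCODE annotates, 5′ to 3′ on the gene's strand, and capitals mark a GC box (GGGCGG) or a TATA box (TATAAA) on either strand, letters that do not overlap between the motifs.
Scn2b, chr9:45028830-45029079, plus strand: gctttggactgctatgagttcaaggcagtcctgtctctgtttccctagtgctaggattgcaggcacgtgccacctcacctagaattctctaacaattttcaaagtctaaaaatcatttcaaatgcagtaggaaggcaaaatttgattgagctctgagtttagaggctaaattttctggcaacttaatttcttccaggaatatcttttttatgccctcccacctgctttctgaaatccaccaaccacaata
Scn4b, chr9:45049345-45049594, plus strand: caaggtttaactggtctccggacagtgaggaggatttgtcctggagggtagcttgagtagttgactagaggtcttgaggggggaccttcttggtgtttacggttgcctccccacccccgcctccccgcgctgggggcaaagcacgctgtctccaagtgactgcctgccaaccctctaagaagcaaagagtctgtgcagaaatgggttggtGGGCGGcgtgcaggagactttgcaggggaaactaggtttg
Cacng5, chr11:107811031-107811280, minus strand: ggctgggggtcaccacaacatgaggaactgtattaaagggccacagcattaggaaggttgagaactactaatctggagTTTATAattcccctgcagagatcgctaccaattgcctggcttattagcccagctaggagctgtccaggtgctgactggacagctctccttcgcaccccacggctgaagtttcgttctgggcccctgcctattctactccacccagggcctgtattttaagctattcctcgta
Cacng2, chr15:78004442-78004691, minus strand: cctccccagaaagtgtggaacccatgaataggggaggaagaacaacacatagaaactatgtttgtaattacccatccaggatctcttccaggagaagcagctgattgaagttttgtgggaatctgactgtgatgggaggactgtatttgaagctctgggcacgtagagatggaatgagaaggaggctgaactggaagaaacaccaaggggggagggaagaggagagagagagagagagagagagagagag
The windows of the neighbours differed in base content, with 40.8% G and C in Scn2b and 57.2% in Scn4b, and with 1 and 8 CG dinucleotides. A GC box was found before Scn4b and not before Scn2b. The only match to the TATA box letters among the 40 members was in the Cacng5 window, on the strand opposite to the gene. Over all members 27.5% of windows held a GC box and 2.5% a TATA box, against 30.2% and 12.5% of 21603 protein-coding genes. These matches describe the letters of the windows and no binding was measured.

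Total counts were 63460940 to 103462414 per library, with 24m replicate 1 the deepest. Of the 40 members, 39 had more than 5 counts in at least 4 libraries and were tested among 16730 genes. The skeletal muscle sodium channel Scn4a was left out, with 0 to 5 counts per library. Levels are given as counts per 1000000 after TMM scaling (CPM), and 33 members averaged at least 1 CPM. The brain origin of the tissue was seen in its markers, with summed levels of 6 pan-neuronal genes of 3287 to 3404 CPM in 6m and 3349 to 3584 CPM in 24m. Within that sum Syt1 was called higher (1.55 ± 0.24), Tubb3 was called lower (-0.63 ± 0.14), and the other 4 were not called. In such bulk tissue fewer cells of a type and less RNA per cell cannot be told apart.

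Of the 39 tested members, 18 were called higher in 24m and 2 lower, and 19 were not called. A call needed an adjusted p of at most 0.05 in edgeR's quasi-likelihood test over all genes and a log2 fold change of at least 0.58 in size. The share called higher was 46.2% of the members against 25.3% of all genes tested, and the share called lower was 5.13% against 18.3%. Adjusted p alone was passed by 28 members, 24 higher and 4 lower, where 62.6% of all genes passed in either direction. All 4 aged libraries lay above all 4 young ones for 19 members and below them for 4, against 28.4% and 26.8% of all genes. The median log2 fold change was 0.55 over the tested members and -0.0034 over all genes.

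**Figure D1:**
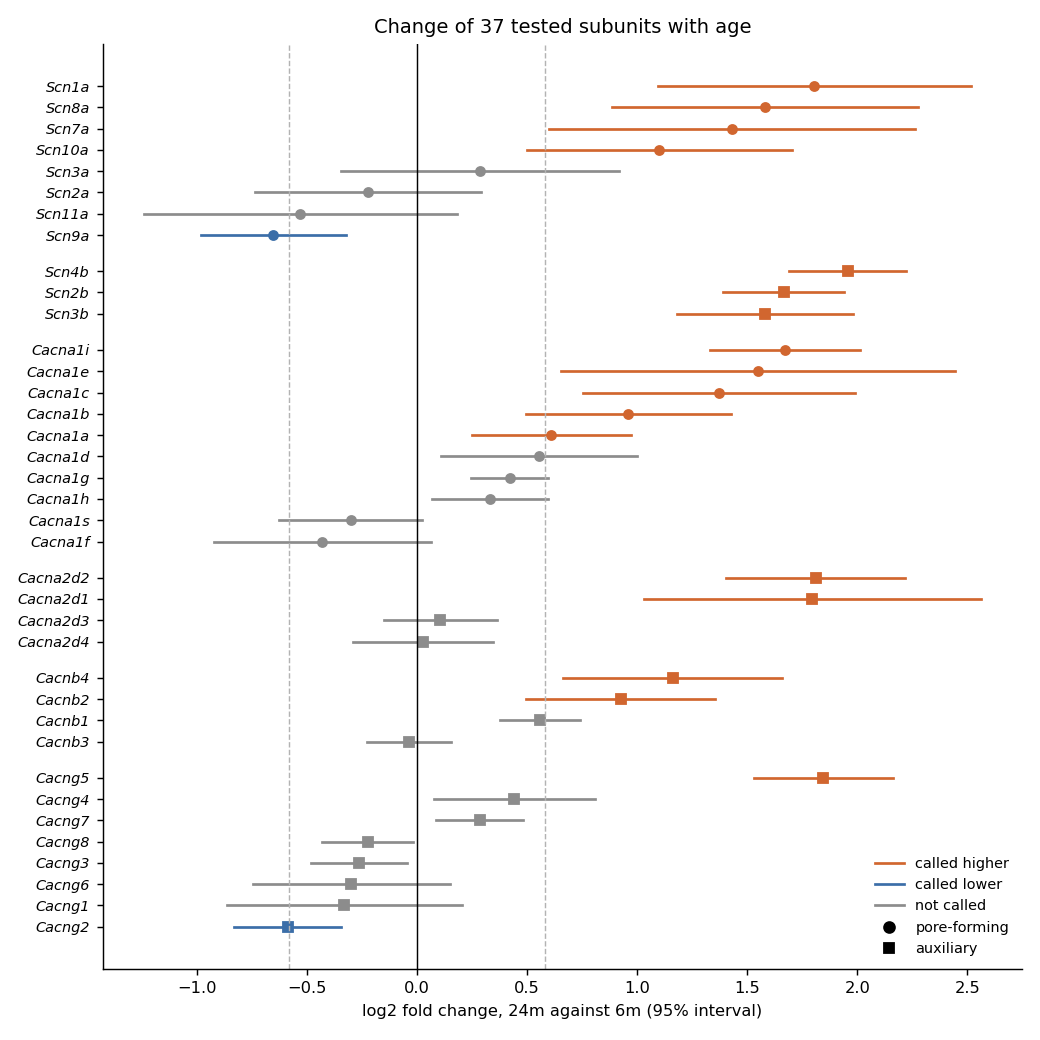
Log2 fold change of 37 tested members, 24m against 6m, with its 95% interval from edgeR, grouped by subunit class. Circles are pore-forming and squares auxiliary subunits, colours give the call, and dashed lines mark the fold threshold. Scn4b stands highest at 1.96 and Scn9a lowest at -0.65, and all classes of the calcium channels hold both members called higher and members that were not called.

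Pore-forming and auxiliary subunits gave similar counts. Among 19 tested pore-forming subunits 10 rose and 1 fell past both thresholds, and their log2 fold changes had a median of 0.61. Among 20 auxiliary subunits 8 rose and 1 fell, and the median was 0.36. Exonic length moved with these values. Fold change and exonic length had a Spearman correlation of 0.31 across the 39 members and 0.42 across 16677 genes, a description across genes, which share the 8 libraries. When the trend over length was removed, 15 members were called higher and 5 lower, the pore-forming median was 0.028 and the auxiliary median 0.39, and 8 pore-forming subunits were called higher and 4 lower. At that setting 21.3% of all genes were called higher and 17.2% lower. The 5 lower genes were then Scn9a (-1.10), Cacng2 (-0.68), Scn2a (-0.74), Cacna1f (-0.76) and Cacna1s (-0.58). Several long genes stayed called higher with smaller values, among them Cacna1e (0.72), Cacna1c (0.66), Cacna2d1 (1.07) and Scn10a (0.73). The higher median of pore-forming genes was not kept at that setting, and no test of the difference between the roles was made.

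**Figure D2:**
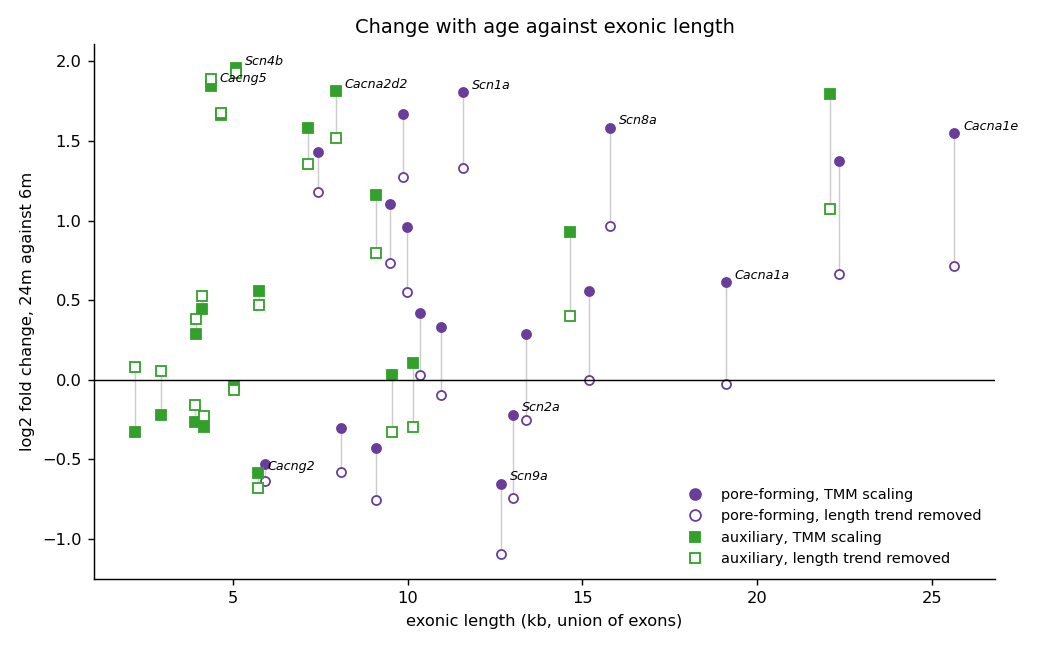
Log2 fold change of 37 tested members, 24m against 6m, against exonic length in kilobases. Filled symbols are the fit with TMM scaling and open symbols the fit with the length trend removed, joined by a grey line for each gene. Long genes of both roles move down, Cacna1e from 1.55 to 0.72 and Cacna2d1 from 1.80 to 1.07, while the short auxiliary genes Scn4b and Cacng5 stay at 1.93 and 1.89.

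The pore-forming sodium channels of the brain changed unequally. Scn8a, the channel that supports repetitive firing at the mature initial segment and nodes, had 30.6, 33.5, 33.2 and 25.5 CPM in 6m replicates 1 to 4, and 40.0, 86.7, 97.0 and 143 CPM in 24m replicates 1 to 4. Every aged library was above every young one, and the aged libraries spread widely, with replicate 1 closest to the young animals. The rise was 2.99-fold, or 1.58 ± 0.31 (SE) as a log2 fold change, with an edgeR adjusted p of 0.00182. Scn1a, the channel of fast-spiking inhibitory neurons that is mutated in Dravet syndrome, had 13.4, 14.7, 11.8 and 8.81 CPM in 6m and 18.9, 45.9, 42.0 and 63.3 CPM in 24m. The groups did not overlap, and its change of 1.80 ± 0.32 on the log2 scale had an edgeR adjusted p of 0.00102. Both calls held without the length trend, at 0.97 for Scn8a and 1.33 for Scn1a.

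Scn2a, which dominates in young axons and in unmyelinated fibres, was not called. It had 102, 80.5, 87.2 and 85.9 CPM in 6m and 43.2, 76.8, 74.6 and 110 CPM in 24m, so that 24m held both the lowest and the highest library. The 95% interval of its log2 fold change, -0.22 ± 0.23, was -0.74 to 0.29 (edgeR adjusted p = 0.42). With each library left out in turn the value ranged from -0.45 without 24m replicate 4 to -0.016 without 24m replicate 1. With the length trend removed it was -0.74 and passed as lower (adjusted p = 0.00284). Scn3a, known as the embryonic brain channel, had 6.73 to 8.23 CPM in 6m and 4.28 to 13.7 CPM in 24m. It was not called, at 0.29 ± 0.28 (edgeR adjusted p = 0.394), and the value was 0.53 without 24m replicate 1 (adjusted p = 0.00991) and 0.018 without 24m replicate 4.

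Other sodium channels are best known outside the brain and were scarce. Scn9a, a channel of pain-sensing neurons, had 4.25 to 5.84 CPM in 6m and 2.57 to 3.52 CPM in 24m. It was the only pore-forming gene called lower, at -0.65 ± 0.15 (edgeR adjusted p = 0.00371), and that call was lost without 6m replicate 1 (-0.57) or without 24m replicate 3 (-0.57) because the value then missed the fold threshold. The sensory neuron channels Scn10a and Scn11a and the sodium-sensing Scn7a were scarcer still. Scn10a had 0.320 to 0.566 CPM in 6m and 0.618 to 1.22 CPM in 24m and was called higher at 1.10 ± 0.27. Scn7a, with 0.212 to 0.382 and 0.415 to 1.31 CPM, was called higher at 1.43 ± 0.37. Scn11a had 0.166 to 0.424 and 0.172 to 0.2995 CPM and was not called (edgeR adjusted p = 0.17).

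Marker lists of tissues outside the brain are given beside these genes, where 18.3% of all genes were called lower. Of 4 tested peripheral sensory neuron markers 2 were called lower, with summed levels of 27.3 to 40.2 CPM in 6m and 10.4 to 20.8 CPM in 24m, and the itch and pain receptor Mrgprd was at or near 0. Of 6 muscle markers 4 were called lower, and their sum went from 65.3 to 72.7 CPM in 6m to 43.1 to 48.6 CPM in 24m. The part of these sums in the levels of Scn9a, Scn10a, Scn11a and Scn4a was not tested.

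**Figure D3:**
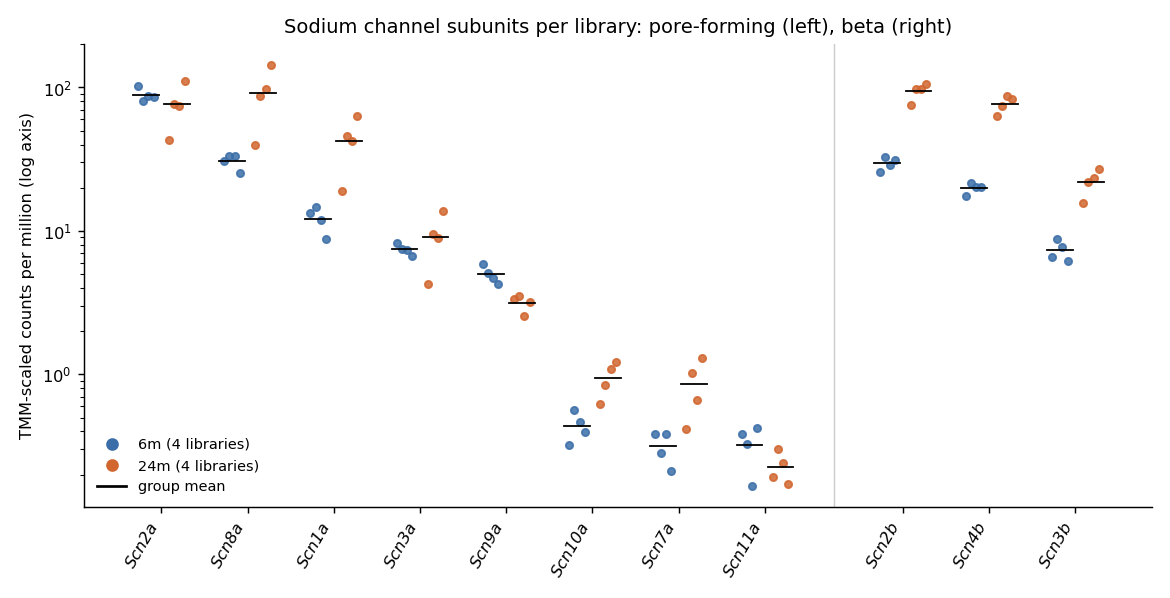
TMM-scaled CPM of 11 tested sodium channel subunits in each library, on a log axis, with pore-forming genes left of the line and beta subunits right of it. Each dot is 1 library and black bars are group means. Scn8a and Scn1a and the beta subunits Scn2b, Scn3b and Scn4b lie wholly above their 6m values in 24m, while Scn9a lies wholly below them.

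Because a ratio of 2 genes within a library does not depend on library scaling, 14 pairs were also tested, each by an exact permutation of its log2 ratio across 70 ways to assign the libraries, with p adjusted over the pairs. The smallest two-sided p this design allows is 0.0286, which becomes 0.0333 after adjustment. In all, 12 pairs reached it, 9 with a rising and 3 with a falling ratio. A pair reaches it only when its ratios do not overlap between the ages. Such separation was common, as 28.4% of all single genes lay wholly above and 26.8% wholly below in 24m. The share among other gene pairs was not computed, and the pairs were chosen with earlier results of these data known. The log2 ratio of Scn8a to Scn2a went from -1.54 ± 0.25 in 6m to 0.21 ± 0.23 in 24m (SD, n = 4 each, exact adjusted p = 0.0333), a 3.35-fold shift in which no libraries overlapped. The ratio of Scn1a to Scn2a moved by 2.00 on the log2 scale and that of Scn3a to Scn2a by 0.47 (exact adjusted p = 0.0333 for both). Even 24m replicate 1, in which all 3 channels were at their lowest of the aged libraries, therefore had higher ratios to Scn2a than any young library.

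Compared per length, as CPM per kilobase of exon (RPKM), Scn2a held most of the summed sodium channel alpha level in young brain. It held 61.4 ± 3.72% of the class in young and 34.7 ± 2.40% in aged brain (SD, n = 4 each). Scn8a went from 17.5 ± 1.97% to 33.1 ± 3.11% and Scn1a from 9.41 ± 1.68% to 21.1 ± 1.73%. The order began with Scn2a, Scn8a and Scn1a at both ages, but in 24m the levels of Scn2a and Scn8a, 5.85 ± 2.11 and 5.81 ± 2.69 RPKM, did not differ beyond their spread. The summed level of the class was 10.2 to 12.3 RPKM in 6m and 8.67 to 25.5 RPKM in 24m, lowest of all libraries in 24m replicate 1.

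**Figure D4:**
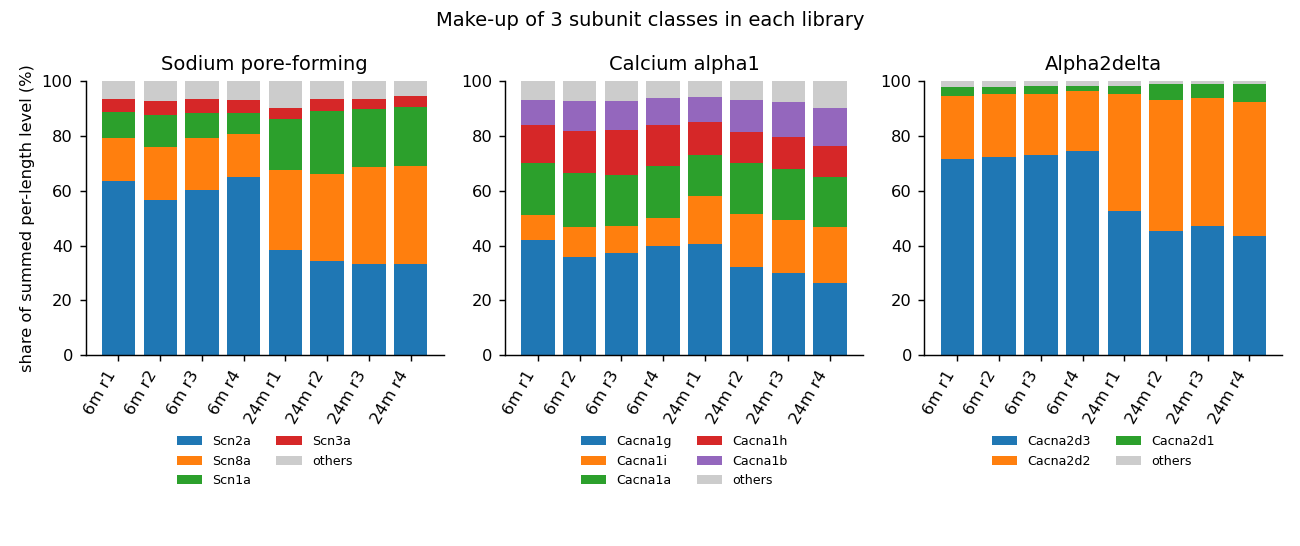
Share of each subunit in the summed per-length level of its class, in percent, for each of the 8 libraries (r is the replicate). Bars add up to 100% and subunits under 4% at both ages are grouped as others. Scn2a falls from 61.4% to 34.7% of sodium alpha, Cacna1i grows from 9.94% to 19.1% of calcium alpha1, and Cacna2d2 from 22.6% to 46.5% of alpha2delta, and these shifts are seen in every 24m library.

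The sodium channel beta subunits Scn2b, Scn3b and Scn4b rose. Scn4b, a subunit linked to resurgent current that is joined to the alpha subunit by a disulfide bond, had 17.6, 21.5, 20.2 and 20.2 CPM in 6m and 63.3, 74.1, 87.8 and 83.5 CPM in 24m. This 3.88-fold rise was the largest of all members, or 1.96 ± 0.12 on the log2 scale (edgeR adjusted p = 1.4e-05). Scn2b, likewise disulfide-linked, had 25.7, 32.7, 28.9 and 31.4 CPM in 6m and 75.7, 97.0, 98.1 and 106 CPM in 24m. It rose by 1.67 ± 0.12 on the log2 scale (edgeR adjusted p = 2.4e-05), again without overlap and with little spread in either age. Scn3b, which associates without a covalent bond, rose from 6.20 to 8.84 CPM in 6m to 15.6 to 26.8 CPM in 24m (1.58 ± 0.18, edgeR adjusted p = 0.000115).

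The neighbours Scn4b and Scn2b moved by unequal amounts, their log2 ratio going from -0.58 ± 0.06 to -0.29 ± 0.10 (exact adjusted p = 0.0333).

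Of the high-voltage-activated calcium channels, those known from neurons other than photoreceptors were all called higher except Cacna1d. Cacna1a, the P/Q-type channel of most central synapses and of Purkinje cells, had 108, 108, 110 and 107 CPM in 6m and 108, 177, 179 and 198 CPM in 24m. Its 24m replicate 1 fell within the narrow range of the young libraries, and the other aged libraries lay far above it. On the log2 scale it rose by 0.61 ± 0.16 (edgeR adjusted p = 0.00842). This call was the least firm of those made higher, since it was lost without 24m replicate 2 (0.58), 3 (0.57) or 4 (0.51), and it turned to -0.025 with the length trend removed (adjusted p = 0.824).

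Cacna1b, the N-type channel that also serves transmitter release, had 27.7, 31.9, 32.4 and 28.6 CPM in 6m and 34.6, 57.1, 64.8 and 78.2 CPM in 24m. It was called higher at 0.96 ± 0.21 (edgeR adjusted p = 0.00306), but without the length trend it was 0.55, short of the fold threshold. The R-type channel Cacna1e had 6.83 to 9.86 CPM in 6m and 7.97, 20.0, 23.2 and 42.1 CPM in 24m. It was called higher at 1.55 ± 0.40 (edgeR adjusted p = 0.00743) although 24m replicate 1 lay inside the young range. The log2 ratio of Cacna1b to Cacna1a rose by 0.33 (exact adjusted p = 0.0333), and that of Cacna1e to Cacna1a rose by 0.76 with overlap (exact adjusted p = 0.0615).

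The L-type channels of brain shifted against each other. Cacna1c, the main neuronal L-type pore and a psychiatric risk gene, had 9.11 to 13.1 CPM in 6m and 14.99 to 42.7 CPM in 24m, and was called higher at 1.37 ± 0.28 (edgeR adjusted p = 0.00206). Cacna1d, the L-type pore that opens at lower voltage, had 10.9 to 15.4 CPM in 6m and 13.2 to 26.9 CPM in 24m. Its log2 fold change of 0.55 ± 0.20 passed adjusted p (edgeR, 0.0342) and missed the fold threshold. It passed as higher without 24m replicate 1 (0.71, adjusted p = 0.00169), without 6m replicate 3 (0.63) and with library totals (0.78). Its value was 0.36 without 24m replicate 4 (adjusted p = 0.086) and 0.34 with quantile-normalized counts (adjusted p = 0.0996), and over all alternatives its adjusted p ranged from 0.00169 to 0.987. The log2 ratio of Cacna1d to Cacna1c fell by 0.77, from 0.27 ± 0.16 to -0.51 ± 0.23 (SD, n = 4 each, exact adjusted p = 0.0333). The skeletal muscle pore Cacna1s and the retinal pore Cacna1f were low, with 1.83 to 2.71 and 0.332 to 0.647 CPM over all libraries, and neither was called (edgeR adjusted p = 0.096 and 0.114). With quantile-normalized counts Cacna1s passed as lower, at -0.59 (DESeq2 adjusted p = 0.00272). Of 4 tested photoreceptor and pineal markers none was called, and Crx was at or near 0.

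The low-voltage-activated or T-type channels, which support rebound bursts in thalamus and cerebellum, also differed among themselves. Cacna1i had 27.3, 30.6, 29.1 and 29.3 CPM in 6m and 65.0, 93.6, 98.5 and 113 CPM in 24m. It rose 3.18-fold, at 1.67 ± 0.15 on the log2 scale (edgeR adjusted p = 4.6e-05), and stayed called at 1.28 with the length trend removed. Cacna1g, the most abundant alpha1 gene per length, had 107 to 129 CPM in 6m and 155 to 166 CPM in 24m. All aged libraries were higher, but at 0.42 ± 0.08 the gene missed the fold threshold (edgeR adjusted p = 0.00132). Cacna1h, whose groups overlapped, had 44.7 to 53.6 CPM and 48.8 to 70.1 CPM (0.33 ± 0.12, edgeR adjusted p = 0.0329). Relative to Cacna1i, Cacna1g fell by 1.22 on the log2 scale (exact adjusted p = 0.0333).

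Per length the order of the alpha1 class in 6m was Cacna1g, Cacna1a, Cacna1h, Cacna1b and Cacna1i, with shares of 38.8 ± 2.62%, 19.1 ± 0.29%, 15.1 ± 1.01%, 10.2 ± 0.82% and 9.94 ± 0.63%. The last 2 did not differ beyond their spread. In 24m Cacna1i came second with 19.1 ± 1.19%, within the spread of Cacna1a at 17.6 ± 1.76%, and Cacna1g still led with 32.4 ± 6.08%. That second place rests on the length used, since with the longest transcript Cacna1a had 17.3 and Cacna1i 9.46 RPKM in 24m. The summed class level was 28.8 to 30.4 RPKM in 6m and 37.7 to 56.6 RPKM in 24m, higher in every aged library.

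**Figure D5:**
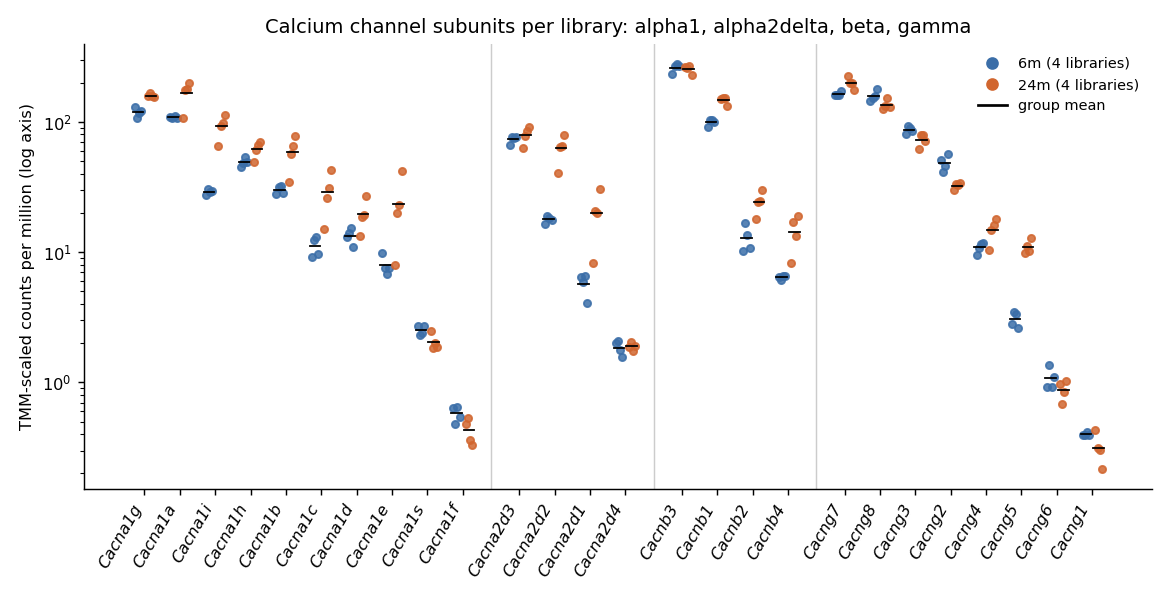
TMM-scaled CPM of the 26 tested calcium channel genes in each library, on a log axis, ordered by level within alpha1, alpha2delta, beta and gamma, which grey lines separate. Each dot is 1 library and black bars are group means. Cacna1i, Cacna2d2, Cacnb4 and Cacng5 show no overlap between ages, whereas Cacna2d3, Cacnb3 and Cacng8 overlap.

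The alpha2delta subunits, which carry channels to the surface and of which the products of Cacna2d1 and Cacna2d2 bind gabapentin, divided into 2 that rose and 2 that were not called. Cacna2d2 had 16.6, 19.0, 18.2 and 17.5 CPM in 6m and 40.2, 64.7, 65.8 and 79.5 CPM in 24m (1.81 ± 0.18, edgeR adjusted p = 6.7e-05). Cacna2d1 had 6.40, 5.90, 6.59 and 4.04 CPM in 6m and 8.21, 20.8, 20.1 and 30.6 CPM in 24m (1.80 ± 0.34, edgeR adjusted p = 0.00153). Neither gene overlapped between ages, and in both 24m replicate 1 was lowest and replicate 4 highest of the aged libraries. Cacna2d3 had 66.4 to 76.2 CPM in 6m and 62.9 to 90.9 CPM in 24m, and Cacna2d4 1.57 to 2.08 and 1.74 to 2.05 CPM. Their log2 fold changes were 0.11 ± 0.12 and 0.028 ± 0.14, with intervals of -0.15 to 0.36 and -0.29 to 0.35.

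Cacna2d3 thus held a smaller part of its class in aged brain, 47.1 ± 3.82% of the per-length level against 72.9 ± 1.28% in 6m. Cacna2d2 reached 46.5 ± 2.62% in 24m, so that these genes no longer differed beyond their spread. With the longest transcript in place of all exons as the length, Cacna2d3 remained ahead in 24m and Cacna2d2 had 34.8%. Relative to Cacna1b, a pore it accompanies at terminals, Cacna2d1 rose by 0.77 on the log2 scale (exact adjusted p = 0.0333).

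Among the calcium channel beta subunits the scarcer genes rose. Cacnb4, whose loss causes ataxia and seizures in the lethargic mouse, had 6.45, 6.14, 6.52 and 6.51 CPM in 6m and 8.22, 16.9, 13.3 and 18.9 CPM in 24m (1.16 ± 0.22, edgeR adjusted p = 0.00159). Cacnb2, the subunit of heart L-type channels, had 10.2 to 16.6 CPM in 6m and 17.9 to 29.8 CPM in 24m and was called higher at 0.93 ± 0.19 (edgeR adjusted p = 0.00241). Its value fell to 0.40 without the length trend, and its locus overlaps 7 annotated genes on its own strand and 9 on the other. Cacnb1, the subunit of skeletal muscle and brain, lay above the young range in every aged library, 132 to 153 against 91.4 to 103.3 CPM. At 0.56 ± 0.08 it missed the fold threshold (edgeR adjusted p = 0.000365).

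Cacnb3, which had the highest level of the class, showed no detectable change, with 234 to 277 CPM in 6m and 229 to 267 CPM in 24m and an interval of -0.23 to 0.16 around a log2 fold change of -0.036. Per length its share went from 73.2 ± 0.45% to 63.7 ± 1.21%, and that of Cacnb1 from 24.5 ± 0.36% to 32.2 ± 0.47%. The log2 ratio of Cacnb4 to Cacna1a, its partner in cerebellum, rose by 0.52, from -4.08 ± 0.04 to -3.56 ± 0.20 (SD, n = 4 each, exact adjusted p = 0.0333).

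The gamma family had the lowest median log2 fold change of the classes, -0.24, with 1 of 8 members called in each direction. Cacng2 encodes stargazin, the prototype TARP, which traffics AMPA receptors in cerebellar granule cells. It had 51.0, 41.2, 45.8 and 56.9 CPM in 6m and 29.9, 33.2, 32.7 and 33.9 CPM in 24m, a fall of 0.59 ± 0.11 on the log2 scale (edgeR adjusted p = 0.00132). All aged libraries were lower, but the value sat just past the fold threshold and slipped under it without 6m replicate 1 (-0.56), without 6m replicate 4 (-0.50) or without 24m replicate 1 (-0.54). Cacng5, a TARP of the other subtype, went the opposite way, with 2.80, 3.45, 3.37 and 2.63 CPM in 6m and 9.77, 11.2, 10.2 and 12.9 CPM in 24m (1.84 ± 0.14, edgeR adjusted p = 2.4e-05). The rise of Cacng5 was nearly the same with the length trend removed, at 1.89.

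No other gamma gene was called. Cacng8, with 145 to 179 CPM in 6m and 126 to 152 CPM in 24m, was not called at -0.22 ± 0.09 (edgeR adjusted p = 0.0575). Cacng3 had 80.8 to 93.7 CPM in 6m and 61.5 to 79.1 CPM in 24m, lower in every aged library at -0.26 ± 0.10 (edgeR adjusted p = 0.0387) and under the fold threshold. Cacng7, a TARP of the same subtype as Cacng5, had 160 to 173 CPM in 6m and 176 to 226 CPM in 24m (0.29 ± 0.09, edgeR adjusted p = 0.0177). Cacng4 had 9.56 to 11.7 CPM in 6m and 10.4 to 18.1 CPM in 24m, and at 0.44 ± 0.16 (edgeR adjusted p = 0.0375) it too was not called. Cacng6 and the skeletal muscle subunit Cacng1 had 0.686 to 1.37 and 0.218 to 0.434 CPM and were not called.

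Ratios within libraries set Cacng2 beside the other forebrain TARPs. That of Cacng8 to Cacng2 rose by 0.36, from 1.71 ± 0.16 to 2.06 ± 0.11 on the log2 scale (SD, n = 4 each, exact adjusted p = 0.0333), while that of Cacng3 to Cacng2 rose by 0.31 with overlap (exact adjusted p = 0.114). Per length the order in 6m was Cacng8, Cacng7, Cacng3 and Cacng2, and in 24m Cacng7 had 39.8 ± 3.91% of the class and Cacng8 36.0 ± 1.96%, values within their spread. The AMPA receptor auxiliaries Cnih2 and Cnih3, which are no calcium channel genes, were not called in either direction.

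Some members lie together in the genome. On chromosome 2, from 65287462 to 66615367, Scn3a, Scn2a, Scn1a, Scn9a and Scn7a stand in that order over 1328 kb. Of these Scn1a and Scn7a were called higher, Scn9a lower, and Scn2a and Scn3a were not called. On chromosome 11 Cacng5 was called higher and its neighbours Cacng4 and Cacng1 were not called, and none of the cluster Cacng7, Cacng8 and Cacng6 on chromosome 7 was called. Of the clusters named here, the pair of Scn2b and Scn4b was the one in which all members were called in 1 direction.

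The same aged animals stood at the ends of the range in gene after gene. Among the 18 members called higher, 24m replicate 1 was the lowest aged library in all 18 and 24m replicate 4 the highest in 17. Over all 39 tested members these libraries were lowest in 27 and highest in 25. The share over all genes was not computed, so these counts do not set the channel genes apart. Among the listed cell type markers, Gad2 and Aqp4 also had 24m replicate 1 lowest and replicate 4 highest. Tubb3 and Pvalb had the reverse. Without 24m replicate 1, 20 members were called higher and 2 lower, where 27.8% and 21.9% of all genes were. Without 24m replicate 4 these were 18 and 2, beside 23% and 15.7% of all genes.

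Genes that work with the channels were counted from lists of partners. Of 4 axon initial segment scaffold genes 3 were called higher, namely the master organizer Ank3 (0.80 ± 0.27, edgeR adjusted p = 0.0257), Nfasc (1.01 ± 0.11, adjusted p = 8.1e-05) and Nrcam (0.93 ± 0.22, adjusted p = 0.00514), and Sptbn4 was not (0.25 ± 0.08). Of 4 intracellular fibroblast growth factors, which bind the sodium channel tail, 3 were called higher, with Fgf13 at 0.76 ± 0.14 and Fgf14 at 0.86 ± 0.15, and Fgf12 was not (0.15 ± 0.14). The sodium leak channel complex had 4 of 5 genes called higher, among them the pore Nalcn at 1.51 ± 0.29 and Unc80 at 1.33 ± 0.32. These shares stand beside 25.3% of all genes called higher.

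Partners that restrain or adapt calcium channels gave other counts. Of 4 small GTPases that bind the beta subunit, 2 were called lower, Rem1 (-0.71 ± 0.25) and Rrad (-0.62 ± 0.14), and none higher, where 18.3% of all genes were called lower. Of the 3 L-type adaptors of the Stac family only the muscle form Stac3 was called, lower at -0.95 ± 0.24. The 3 calmodulin genes were not called, although Calm2 had 1384 CPM in 6m and 1029 CPM in 24m. Cachd1, an alpha2delta-like protein, was called higher at 0.96 ± 0.19. The ubiquitin ligase Nedd4 rose from 20.6 to 113 CPM (2.45 ± 0.29, edgeR adjusted p = 0.000146), and Nedd4l, which acts on sodium channels, was not called at 0.42 ± 0.13.

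Cell type markers are given for the neurons and glia that carry these channels, beside 25.3% of all genes called higher and 18.3% called lower. Of 6 inhibitory neuron markers 2 were called higher, Gad1 and Gad2, and 2 lower, Pvalb and Sst, with summed levels of 1392 to 1728 CPM in 6m and 1130 to 1387 CPM in 24m. Excitatory markers had 2 of 4 called higher (1295 to 1593 against 1480 to 1938 CPM), and Purkinje and granule cell markers 3 of 5 (298 to 532 against 354 to 522 CPM). Astrocyte markers had 4 of 5 called higher (281 to 305 against 409 to 624 CPM), microglial markers 2 of 4 (118 to 126 against 151 to 178 CPM) and oligodendrocyte precursor markers 2 of 4 (38.7 to 41.7 against 53.7 to 82.1 CPM). Oligodendrocyte markers had 1 of 4 called higher (2210 to 2849 against 2543 to 2730 CPM), and of 4 endothelial markers 1 was called in each direction (34.5 to 51.7 against 24.7 to 37.2 CPM). Their part in the changes of the channel genes was not tested.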

How the data were processed

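Poly(A) RNA of 8 mouse brains was measured by paired-end sequencing of directional libraries. According to the labels and the study's methods, the authors trimmed reads with Trim Galore 0.4.11, aligned them to GRCm39 with HISAT2 2.1.0 and counted them per Ensembl gene with featureCounts, and the deposited values are raw whole-number counts, with no normalization and no pooling. Strand use and the treatment of multimapping reads were not given in the sources used here, so counts of similar paralogs and of overlapping or antisense genes are uncertain. Symbols, positions and exonic lengths came from GENCODE vM39 of the same assembly, a later release, in which 22281 of 22430 genes matched. Upstream sequences were read from GRCm39 at the GENCODE starts.

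A gene was tested when at least 4 libraries held over 5 counts of it, with edgeR 4.0.16 (R 4.3.3), TMM factors, age as the only term and Benjamini-Hochberg adjustment over 16730 genes. Standard errors were derived from the log2 fold change and its F statistic. The study itself used quantile normalization, a median normalization by row and DESeq2. Quantile-normalized counts with DESeq2 1.42.0 were run here as an alternative, without the step by row. Ratios used counts plus 0.5 and exact permutation (scipy 1.17.1). No replicate pair of the same age agreed within sampling noise, and each library came from another animal. The chi-square per degree of freedom was 182 to 425 for pairs with 24m replicate 1. It was 13.1 to 61.8 among the other aged libraries and 8.24 to 48.8 among the young ones. On simulated counts, the fit over 16730 genes recovered 86% of 200 that were given a log2 change of 1, and called 7 unchanged genes. The simulation gave all genes a common dispersion and made libraries independent and equally variable at both ages. The aged libraries here were not so, and these figures therefore cannot be carried over to these data. Shared trends of counts over exonic length or GC content were removed with an offset per library (lowess span 0.3).

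Single values of 2 tested members are not reported here or drawn, though both enter the counts, medians and class totals. The other members are reported, in full or by range when they averaged at least 1 CPM and otherwise by range. The members, pairs and lists were chosen with earlier results of these data known. Other alternatives were library totals, RLE factors, limma-voom (limma 3.58.1), other filters, adjusted p alone, each library left out and the replicate number as a block.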

Additional observations from a re-analysis of the deposited data

Results flagged for a closer look

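Over the 39 tested members and both ages, 78 groups of 4 libraries were searched for a library far from the other 3 of its age. Chance flags about 1 in 20 groups, or 3.9 of these 78, and 3 were found, all in 6m. Cacna2d3 had 66.4 CPM in 6m replicate 1, against 75.8 to 76.2 CPM in the other young libraries. Cacng1 had 0.415 CPM in 6m replicate 3, against 0.393 to 0.396 CPM. Cacng7 had 173 CPM in 6m replicate 4, against 160 to 161 CPM, and this library remained below every aged one. None of the 3 genes was called.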

How the results depend on the processing

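Of the 18 members called higher, 15 were called under all 19 alternatives in which they were tested, the exceptions being Cacna1a, Cacna1b and Cacnb2, and neither Cacng2 nor Scn9a was called lower under all of them. Counts called lower were 0 with library totals, 1 with limma-voom, 1 with no count filter, 4 with adjusted p alone, 5 with the length trend removed, 1 with the GC trend removed and 0 to 3 with a library left out. With quantile-normalized counts and DESeq2, 3 members were called lower, beside 23.3% of all genes. Library totals moved the median of all genes to 0.21 and called 22 members higher, beside 32.6% of all genes higher and 10.4% lower. Replicate numbers did not pair the animals, with correlations of deviations of 0.27, 0.14, 0.078 and -0.35. The replicate block gave 17 members called higher and 1 lower, losing Cacna1a and Cacng2, and not every library correlated best with its own number.

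Over the single genes and alternatives, 671 values kept their direction and call, 26 gained a call, 18 lost it and 20 turned, and all 140 alternative values of the ratios stayed within the spread between libraries. Direction turned only in members that were not called, apart from Cacna1a. With library totals Cacnb3 was 0.18 and Scn2a 0.017. With quantile-normalized counts and DESeq2, Cacna2d4 was -0.26, Cacnb3 0.11 and Scn3a -0.045. With the length trend removed, Cacna1a was -0.025, Cacna1d -0.0024, Cacna1h -0.096, Cacna2d3 -0.29, Cacna2d4 -0.33, Cacng1 0.078, Cacng8 0.052 and Scn3a -0.25. With the GC trend removed, Cacna2d3 was -0.018, Cacnb3 0.19, Cacng8 0.032 and Scn3a -0.047. With each library left out in turn, Cacna2d4 ranged from -0.043 to 0.089 and Cacnb3 from -0.085 to 0.011. With the longest transcript as length, class shares were 34.1% for Cacna1g, 80.3% for Cacna2d3, 71.4% for Cacnb3 and 39.7% for Cacng8 in 6m, and 34.8% for Cacna2d2 and 61.4% for Cacnb3 in 24m. The cause of these shifts was not tested. Members under 1 CPM rest on few counts.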
